A study of Mus musculus with 6 samples.

Results

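Extracellular purine signalling was followed through 10 genes in RNA of cells sorted as regulatory T cells (Tregs), the lymphocytes that restrain immune responses. The genes were taken by symbol from a count table of 51361 genes. They encode the ectonucleotidases CD39 (Entpd1) and CD73 (Nt5e), the adenosine receptors Adora2a and Adora2b, and the ATP-gated channels P2rx4 and P2rx7. The remaining members encode the nucleotide receptors P2ry6, P2ry13 and P2ry14 and adenosine deaminase (Ada). All 10 were in the table, and all 10 were among the 16657 genes that passed the filter on low counts. The mice were 9-week-old males on the C57BL/6N background, and all 3 groups carried the transgene Tg(Foxp3-DTR/EGFP)23.2Spar, in which Foxp3 sequences drive a diphtheria toxin receptor joined to a green fluorescent protein. In the tMCAO groups a cerebral artery had been closed for 60 min, and CD4+CD25+Foxp3+ cells were sorted from brain or from blood 14 days later. The third group was blood of mice after a Sham operation. There was no Sham brain group. The groups tMCAO brain and sham blood therefore differ in both tissue and operation, which cannot be told apart. There were 2 libraries in each group, made from 500 to 1000 cells each.

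ATP and ADP leave stressed or dying cells and act on P2X channels and P2Y receptors of their neighbours. CD39 removes phosphates from ATP and ADP, CD73 turns the resulting AMP into adenosine, adenosine acts on its own receptors, and adenosine deaminase destroys it. Tregs are known for carrying CD39 and CD73, microglia for P2Y receptors that sense nucleotides from injured tissue.

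Totals were 14348179 to 24460894 counts per library. Levels are given as CPM, a count over the TMM-scaled library size. Foxp3, the lineage factor of the sort, stood at 0.726 and 19.6 CPM in the tMCAO brain libraries, at 0.538 and 5.18 CPM in those of tMCAO blood and at 50.1 and 60.7 CPM in those of sham blood. Together, 17 T cell identity genes made up 0.0284% and 0.147% of counts in the tMCAO brain libraries, 0.0652% and 0.445% for tMCAO blood and 0.841% and 0.807% for sham blood. For the 20 microglia markers these shares were 2.59% and 2.25%, 0.599% and 0.404%, and 0.137% and 0.166%. Sall1, the defining transcription factor of microglia, was at 0 counts in all 4 blood libraries, where 2 to 4 of the 20 markers were at 0, and in neither brain library. The 20 monocyte and macrophage markers took 3.54% and 1.53%, 2.95% and 1.30%, and 0.754% and 0.604% in the same order. In bulk RNA, fewer cells of a type and less of a transcript per cell cannot be told apart, and the labels do not say whether libraries came from different animals. The p-values therefore measure only how these libraries differ among themselves, which may be technical.

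Between tMCAO brain and sham blood, 5 of the 10 genes were higher in brain: P2ry13, P2ry6, P2rx4, P2ry14 and Entpd1 (edgeR quasi-likelihood test, adjusted p under 0.05). None was called lower by edgeR, DESeq2 or limma-voom, and 0 were lower at an unadjusted p under 0.05. Over all genes tested, 8.01% were called higher and 2.62% lower in that comparison. Between tMCAO brain and tMCAO blood edgeR called only P2ry6, as higher, and none lower (1 at an unadjusted p, Adora2b, which DESeq2 called and limma-voom did not), where 3.53% of all genes were called higher and 1.37% lower. Between tMCAO blood and sham blood edgeR called none of the 10 (4 had an unadjusted p under 0.05), against 4.33% of all genes called higher and 3.15% lower. DESeq2 called 3 of the 10 there and 3806 of all 16657 genes, and limma-voom called 0 of the 10 and 1146 of all genes. The comparisons share libraries, so they are not independent of each other. The median log2 change of the 10 genes was 2.17 for tMCAO brain against sham blood, 1.64 for tMCAO brain against tMCAO blood and 0.81 for tMCAO blood against sham blood. Over all genes tested these medians were 0.09, 0.06 and 0.11. In all, the 10 genes took 0.115% and 0.0812% of counts in the tMCAO brain libraries, 0.0331% and 0.0316% for tMCAO blood and 0.0233% and 0.0266% for sham blood.

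**Figure D1:**
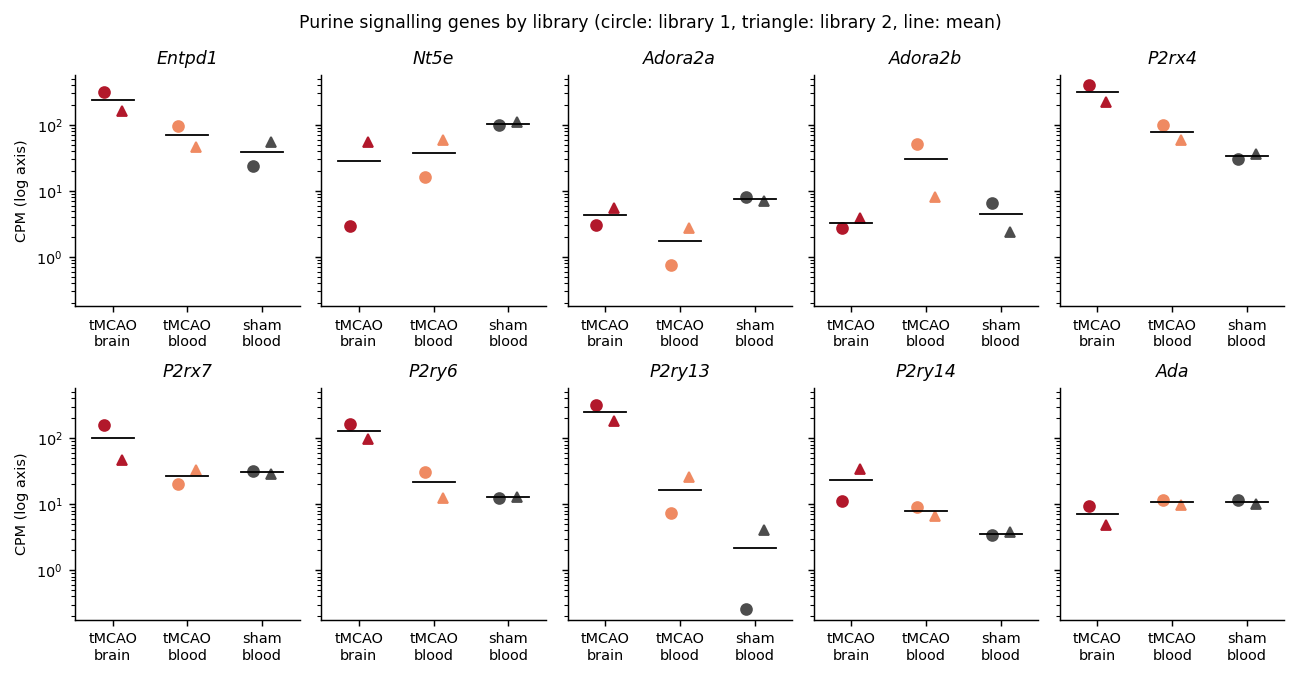
Level of each of the 10 genes in CPM (log axis) in the 6 libraries by group, with circles for library 1, triangles for library 2 and lines for the mean of both. P2ry13, P2ry6, P2rx4, P2rx7, P2ry14 and Entpd1 stand highest in both tMCAO brain libraries, while Nt5e and Adora2a stand highest in both sham blood libraries.

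Library ranges were also compared. Both brain libraries lay above both sham blood libraries for 6 genes and below them for 3, where 34.9% and 29.7% of all genes did so. Against tMCAO blood they lay above for 7 genes and below for 2 (31.4% and 25.9% of all genes). The tMCAO blood libraries lay above those of sham blood for 4 genes and below for 2 (33.6% and 30.4%). Without sham blood library 1, and equally without library 2, none of the 10 genes and none of all genes was called for tMCAO brain against sham blood (edgeR; 5 of the 10 had an unadjusted p under 0.05 in each case). Without tMCAO brain library 1 the 5 called genes became 3. Leaving out both libraries with Foxp3 under 1 CPM, a setting chosen after seeing the data, left a lone library in each tMCAO group. The spread then came from the sham libraries alone. Log2 changes for tMCAO brain against tMCAO blood in that setting were 2.9 for P2ry6, 2.75 for P2ry13, 2.3 for P2ry14, 1.81 for P2rx4 and 1.72 for Entpd1. They were 0.94 for Adora2a, 0.45 for P2rx7, -0.19 for Nt5e, -1.1 for Ada and -1.12 for Adora2b.

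Of the ectonucleotidases, Entpd1 stood highest in brain and Nt5e in sham blood. Entpd1 (chromosome 19, 40612366 to 40741602, plus strand, GRCm38), which encodes CD39, stood at 313 and 161 CPM in the tMCAO brain libraries, at 96.4 and 46.4 CPM in those of tMCAO blood and at 23.9 and 54.3 CPM in those of sham blood. Both brain libraries were above all blood libraries, and the ranges of the blood groups overlapped. Entpd1 rose 6.06-fold in tMCAO brain against sham blood (log2 change 2.60 ± 0.60 SE, edgeR adjusted p = 0.0461). That call was lost with DESeq2 size factors (adjusted p = 0.0513), and without tMCAO brain library 1 or 2 (0.133 and 0.0522) or either sham library (0.274 without library 1, log2 change 2.01, and 0.162 without library 2, log2 change 3.30). Against tMCAO blood the log2 difference of Entpd1 in tMCAO brain was 1.73 ± 0.58 (adjusted p = 0.12 in edgeR, 0.0339 in DESeq2 and 0.0912 in limma-voom). Between the blood groups it was 0.87 ± 0.57 (0.35).

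Nt5e (chromosome 9, 88327197 to 88372092, plus strand), which encodes CD73, stood at 2.96 and 54.2 CPM in the tMCAO brain libraries, at 16.4 and 58.6 CPM in those of tMCAO blood and at 98.7 and 109 CPM in those of sham blood. It was highest in both sham libraries, and the library pairs of brain and of tMCAO blood overlapped. The brain libraries differed 18.3-fold from each other, library 2 being the higher, as it was for Foxp3 (27.0-fold). In edgeR the Nt5e log2 difference was -1.86 ± 1.20 for tMCAO brain against sham blood (adjusted p = 0.354) and -1.47 ± 1.19 between the blood groups (0.44). The former was -5.13 without tMCAO brain library 2, where edgeR called it (adjusted p = 0.0417), and -0.95 without library 1 (0.493). It was also called with no filter on low counts (7.05e-05) and without both libraries of low Foxp3 (-0.97, 0.0199). Its log2 difference between tMCAO brain and tMCAO blood was -0.39 ± 1.17 and changed sign without tMCAO brain library 1 (0.52) or tMCAO blood library 2 (0.79).

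Set per kilobase of annotated exon within each library, Entpd1 was 163 and 4.58 times the level of Nt5e in tMCAO brain. In tMCAO blood this ratio was 9.08 and 1.22, and in sham blood 0.374 and 0.768. CD73 transcripts thus exceeded CD39 transcripts per length in the sham libraries, and the reverse held in all 4 tMCAO libraries. Ratios of both tMCAO groups lay above those of sham blood, with an exact permutation p = 0.333 (two-sided, 2 against 2 libraries), the smallest this design allows. The ratios of brain and tMCAO blood overlapped (exact permutation p = 0.667). The ratio was highest in tMCAO brain library 1 and tMCAO blood library 1, the libraries with Foxp3 under 1 CPM and the lowest T cell shares. The part of cell composition in this ratio was not tested.

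**Figure D2:**
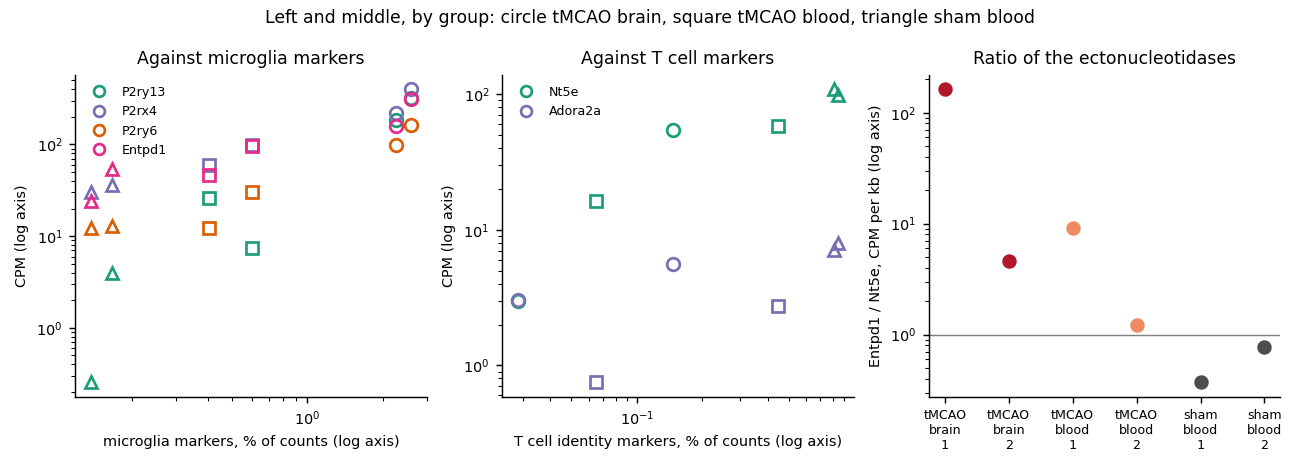
Left, CPM of P2ry13, P2rx4, P2ry6 and Entpd1 against the share of counts in 20 microglia markers; middle, CPM of Nt5e and Adora2a against the share in 17 T cell identity genes; all axes are log scales and each point is 1 library. Right, the ratio of Entpd1 to Nt5e (CPM per kb, log axis) in each library, which is under 1 in the sham blood libraries and 163 in tMCAO brain library 1.

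Adora2a (chromosome 10, 75316877 to 75334784, plus strand), a Gs-coupled adenosine receptor that restrains T cells, stood at 3.02 and 5.56 CPM in the tMCAO brain libraries, at 0.754 and 2.74 CPM in those of tMCAO blood and at 8.02 and 7.04 CPM in those of sham blood. The sham libraries were highest and the tMCAO blood libraries lowest, with no overlap between any of the 3 groups. These levels came from 14 to 136 counts per library. The log2 difference of Adora2a for tMCAO blood against sham blood was -2.10 ± 0.76 (edgeR adjusted p = 0.13). DESeq2 called it (adjusted p = 0.0366). In tMCAO brain the difference was -0.81 ± 0.73 from sham blood and 1.29 ± 0.74 from tMCAO blood (edgeR adjusted p = 0.509 and 0.304).

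Adora2b (chromosome 11, 62248984 to 62266453, plus strand), the receptor of lower adenosine affinity, had its highest levels in tMCAO blood, at 52.1 and 8.02 CPM, compared with 2.72 and 3.88 CPM for tMCAO brain and 6.61 and 2.39 CPM for sham blood. The tMCAO blood libraries differed 6.49-fold from each other, and the lower one was just above sham library 1. The log2 difference of Adora2b was -3.18 ± 0.97 for tMCAO brain against tMCAO blood (adjusted p = 0.0995 in edgeR) and 2.73 ± 0.96 for tMCAO blood against sham blood (0.122). The former was -1.28 without tMCAO blood library 1 and -3.98 without library 2. The latter was 3.53 without tMCAO blood library 2 (edgeR adjusted p = 0.0472) and 0.83 without library 1 (0.594). In tMCAO blood, then, Adora2a had its lowest and Adora2b its highest levels. Per kilobase, Adora2a was 0.669 and 0.863 times Adora2b in tMCAO brain, 0.00872 and 0.206 times in tMCAO blood and 0.731 and 1.77 times in sham blood.

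Ada (chromosome 2, 163726584 to 163750239, minus strand), the enzyme that turns adenosine into inosine, had the narrowest range of the members. It stood at 9.44 and 4.86 CPM in the tMCAO brain libraries, at 11.7 and 9.87 CPM in those of tMCAO blood and at 11.4 and 9.99 CPM in those of sham blood. Both brain libraries were below all 4 blood libraries. The log2 difference of Ada for tMCAO brain against sham blood was -0.59 ± 0.46 (adjusted p = 0.446 in edgeR). Between the blood groups it was 0.0086 ± 0.46, with a sign that changed under 6 settings.

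The P2X channels open on binding ATP, P2X4 at low and P2X7 at high concentrations. P2rx4 (chromosome 5, 122707544 to 122729738) stood at 401 and 219 CPM in the tMCAO brain libraries, at 99.5 and 59.0 CPM in those of tMCAO blood and at 30.7 and 36.4 CPM in those of sham blood. The 3 groups did not overlap. P2rx4 rose 9.24-fold in tMCAO brain against sham blood (log2 change 3.21 ± 0.45, edgeR adjusted p = 0.0146), a call lost only without sham library 1 (0.154) or 2 (0.139) among the settings run. The P2rx4 log2 difference for tMCAO brain against tMCAO blood was 1.97 ± 0.43 (edgeR adjusted p = 0.0553), which 6 other settings called, among them limma-voom (0.0365). For tMCAO blood against sham blood it was 1.24 ± 0.42 (edgeR adjusted p = 0.112).

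P2rx7 (chromosome 5, 122643911 to 122691432), whose channel is linked to inflammasome activation in macrophages and to death of T cells, lies 16111 bases before P2rx4 on the same strand. It stood at 157 and 47.3 CPM in the tMCAO brain libraries, at 20.3 and 32.8 CPM in those of tMCAO blood and at 32.3 and 28.7 CPM in those of sham blood. The brain libraries were the highest, but differed 3.31-fold from each other, and the blood groups overlapped. The log2 difference of P2rx7 was 1.94 ± 0.58 for tMCAO brain against tMCAO blood (adjusted p = 0.0964 in edgeR, 0.0156 in DESeq2 and 0.109 in limma-voom). For tMCAO brain against sham blood it was 1.74 ± 0.58 (0.105 in edgeR), which DESeq2 called and limma-voom did not. Against sham blood it was 2.36 without tMCAO brain library 2, where edgeR called P2rx7 (adjusted p = 0.0313), and 0.62 without library 1 (0.408). The neighbours differed in level too. Per kilobase P2rx4 was 0.808 and 1.08 times P2rx7 in sham blood, 4.16 and 1.53 times in tMCAO blood and 2.17 and 3.92 times in tMCAO brain. Of the 10 members, P2rx7 alone shares annotated exon bases with another gene (Mir8115, 119 bases).

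**Figure D3:**
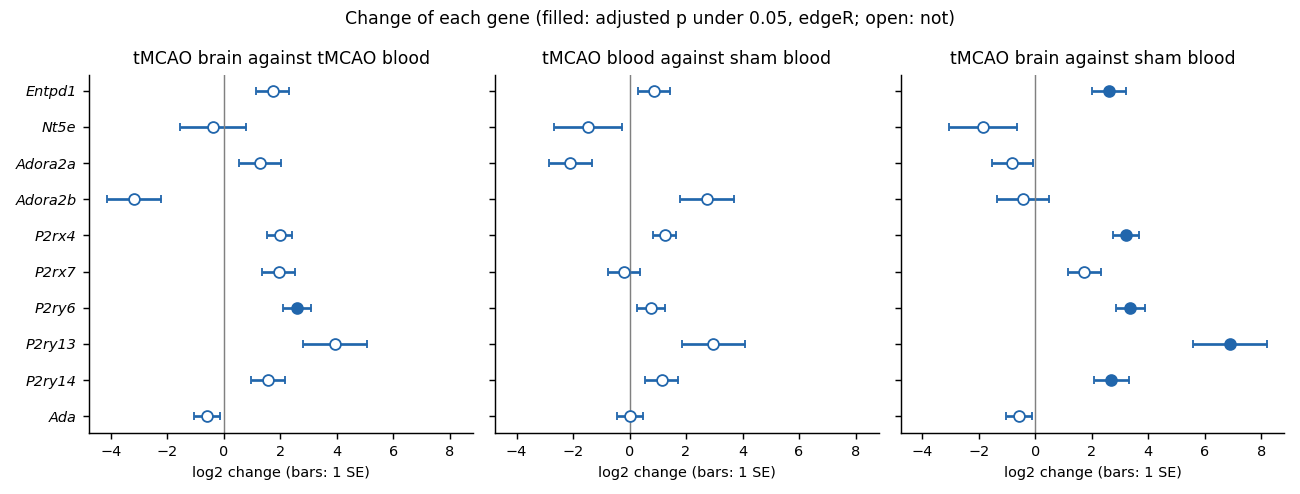
Log2 change of each of the 10 genes in the 3 comparisons, with bars of 1 SE; filled points have an edgeR adjusted p under 0.05. P2ry6 is filled for tMCAO brain against tMCAO blood, 5 genes are filled for tMCAO brain against sham blood, and none is for tMCAO blood against sham blood.

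Among the P2Y receptors, P2ry6 (chromosome 7, 100937630 to 100974649, minus strand) encodes the UDP receptor known for triggering phagocytosis by microglia. It stood at 163 and 97.7 CPM in the tMCAO brain libraries, at 30.5 and 12.4 CPM in those of tMCAO blood and at 12.3 and 13 CPM in those of sham blood. Both brain libraries were above all blood libraries, and the blood groups overlapped. P2ry6 rose 10.3-fold in tMCAO brain against sham blood (log2 change 3.36 ± 0.52, adjusted p = 0.0181 in edgeR) and 6.08-fold against tMCAO blood (log2 change 2.60 ± 0.50, edgeR adjusted p = 0.0447). The call against sham blood was lost without sham library 1 (0.166) or 2 (0.16). The call against tMCAO blood was lost with only these groups in the fit (adjusted p = 0.107), and on leaving out tMCAO brain library 1 (0.112) or 2 (0.0672), the second tMCAO blood library (0.0916), or sham library 1 (0.128) or 2 (0.124). Without the first tMCAO blood library the log2 change was 3.39 and remained called (0.0497). Between the blood groups the P2ry6 log2 difference was 0.76 ± 0.48 (edgeR adjusted p = 0.332).

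P2ry13 (chromosome 3, 59207892 to 59210882, minus strand) encodes an ADP receptor typical of resting microglia. It had the widest range of the members, at 320 and 183 CPM in the tMCAO brain libraries, at 7.43 and 25.8 CPM in those of tMCAO blood and at 0.257 and 4.01 CPM in those of sham blood. The groups did not overlap, and sham library 1 held 4 counts. P2ry13 rose 119-fold in tMCAO brain against sham blood (log2 change 6.89 ± 1.31, edgeR adjusted p = 0.0289). The call was lost without tMCAO brain library 1 (adjusted p = 0.063) or either sham library (0.131 without library 1, log2 change 5.85, and 0.0979 without library 2, log2 change 9.89). Against tMCAO blood the log2 difference of P2ry13 was 3.92 ± 1.13 (edgeR adjusted p = 0.0888), which DESeq2 and limma-voom called (0.00211 and 0.0257). Between the blood groups it was 2.97 ± 1.12 in edgeR (0.143), and DESeq2 called it (0.0317).

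P2ry14 (chromosome 3, 59113855 to 59153618, minus strand), the receptor for UDP-glucose, stood at 11.3 and 34.6 CPM in the tMCAO brain libraries, at 8.94 and 6.68 CPM in those of tMCAO blood and at 3.40 and 3.73 CPM in those of sham blood. The 3 groups did not overlap. P2ry14 rose 6.44-fold in tMCAO brain against sham blood (log2 change 2.69 ± 0.61, edgeR adjusted p = 0.0443). limma-voom did not call it (adjusted p = 0.0831). Leaving out tMCAO brain library 2 ended the call (log2 change 1.66, adjusted p = 0.116). So did leaving out either tMCAO blood library (0.0585 for library 1, 0.0584 for library 2) or either sham library (0.268 and 0.255). Its log2 difference was 1.56 ± 0.59 for tMCAO brain from tMCAO blood and 1.13 ± 0.59 between the blood groups (edgeR adjusted p = 0.15 and 0.251). P2ry14 was higher in brain library 2, whereas P2ry13, P2ry6, P2rx4 and Entpd1 were higher in brain library 1. P2ry14, P2ry13 and the microglial ADP receptor gene P2ry12 lie in this order, 54273 and 5389 bases apart, within the span of Med12l on its opposite strand. P2ry13 and P2ry14 share no annotated exon base with Med12l, and P2ry12 shares 9. Med12l stood at 3.53 to 11.1 CPM.

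Markers of several cell types differed between the same groups. Over all genes tested, edgeR called 8.01% higher and 2.62% lower in tMCAO brain against sham blood. These shares were 3.53% and 1.37% in tMCAO brain against tMCAO blood, and 4.33% and 3.15% in tMCAO blood against sham blood. In edgeR, 19 of the 20 microglia markers rose in tMCAO brain against sham blood, 12 rose against tMCAO blood, and 7 rose and 2 fell in tMCAO blood against sham blood. P2ry13, P2ry6, P2rx4, Entpd1, P2rx7 and P2ry14 had the order tMCAO brain over all blood libraries, as had the summed microglia share. Dendritic cell markers, which share Siglech with the microglia list, had this order too (0.135% and 0.195% of counts in brain, at most 0.08% in blood). So had astrocyte markers (0.00437% and 0.0118% in brain, at most 0.00145% in blood). The part of microglial, dendritic cell or astrocyte RNA in the differences of these 6 genes was not tested. The 17 T cell identity genes had a median log2 difference of -3.18 in tMCAO brain against sham blood. edgeR called none of them there, 15 were lower at an unadjusted p under 0.05, and DESeq2 called 15 lower and limma-voom 2. Nt5e and Adora2a were highest in sham blood, where the T cell share was also highest. Of 20 monocyte and macrophage markers (Csf1r is also in the microglia list), 9 rose and 2 fell in tMCAO brain against sham blood. In tMCAO blood against sham blood 7 of them rose. In tMCAO brain against tMCAO blood 5 of them fell and edgeR called none higher (5 were higher at an unadjusted p under 0.05, and DESeq2 called 4 and limma-voom 3). Of 12 dendritic cell markers, 6 rose in tMCAO brain against sham blood and 5 against tMCAO blood. In tMCAO blood against sham blood 1 of them fell, and the median log2 change of the list was -0.16. Red cell genes made up 15.8% and 17.3% of counts for sham blood, 0.109% and 3.85% for tMCAO blood and at most 0.00272% for brain, where 9 of 11 fell against sham blood. The part of these cells in the members' differences was not tested.

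Promoter sequences are shown for 3 of the genes that rose in brain, P2ry13, Entpd1 and P2rx4, and for Nt5e, which stood highest in sham blood. Each is 250 bases before to 50 after a RefSeq start in GRCm38.p6, printed 5′ to 3′ on the gene's strand. Capitals mark the motif GAGGAAG of the myeloid factor PU.1 on either strand.
P2ry13 (chr3:59210833-59211132, minus strand): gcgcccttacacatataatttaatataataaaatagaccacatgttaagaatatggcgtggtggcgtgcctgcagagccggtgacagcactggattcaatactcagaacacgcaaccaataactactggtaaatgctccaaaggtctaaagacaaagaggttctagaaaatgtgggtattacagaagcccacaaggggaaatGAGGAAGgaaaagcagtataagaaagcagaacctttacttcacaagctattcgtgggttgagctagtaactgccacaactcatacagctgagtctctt
Entpd1, the downstream of its pair of starts (chr19:40659520-40659819, plus strand): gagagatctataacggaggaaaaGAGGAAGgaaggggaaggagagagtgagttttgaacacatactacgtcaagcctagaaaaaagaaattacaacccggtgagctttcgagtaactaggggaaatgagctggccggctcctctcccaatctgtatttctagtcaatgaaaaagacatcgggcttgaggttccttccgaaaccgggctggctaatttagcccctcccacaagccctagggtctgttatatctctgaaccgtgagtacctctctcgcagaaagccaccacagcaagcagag
P2rx4 (chr5:122707294-122707593, plus strand): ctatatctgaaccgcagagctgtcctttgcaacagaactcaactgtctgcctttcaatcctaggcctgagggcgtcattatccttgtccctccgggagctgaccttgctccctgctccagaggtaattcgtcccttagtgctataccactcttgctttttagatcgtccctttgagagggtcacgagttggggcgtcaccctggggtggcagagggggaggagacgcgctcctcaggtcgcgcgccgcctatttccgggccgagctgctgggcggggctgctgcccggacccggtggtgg
Nt5e (chr9:88327359-88327658, plus strand): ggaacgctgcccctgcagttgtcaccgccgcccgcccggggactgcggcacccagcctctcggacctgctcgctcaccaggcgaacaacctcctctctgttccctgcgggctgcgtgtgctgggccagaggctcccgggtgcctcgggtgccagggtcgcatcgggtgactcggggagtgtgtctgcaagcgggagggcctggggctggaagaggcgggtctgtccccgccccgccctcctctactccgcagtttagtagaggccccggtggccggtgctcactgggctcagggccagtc

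The PU.1 letters were found at position -48 of P2ry13 and -227 of this Entpd1 start (first base of the match, counted from the start site). They are not in the windows printed for P2rx4 and Nt5e, nor in the upstream Entpd1 window. Of 13 windows of 8 members with an entry, 4 held them (30.8%), the others being 1 start each of P2ry14 and P2rx7, against 13.6% of 32851 promoter windows of 300 bases. Some windows of P2ry14 overlap, so the 13 are not separate sequences. Also searched on both strands were the cyclic AMP response element TGACGTCA (1.79% of windows), the forkhead motif GTAAACA (3.65%) and the AP-1 motif TGANTCA (7.81%). None of these was in the windows printed. Among member windows not printed, the AP-1 motif was found at -202 and -144 of different P2ry14 starts and at -249 of a P2rx7 start. The forkhead motif was found in overlapping P2ry14 windows, at 3 and -208 of their starts. The share of member windows was counted for the PU.1 letters only, so an excess particular to PU.1 is not shown. A match is a run of letters and is not shown to be a bound site.

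Compared per kilobase of exon, the order of the members differed between groups. In tMCAO brain P2ry13 led with 127 and 72.3 CPM per kb, above P2ry6 (56.5 and 33.8), P2rx4 (57.1 and 31.1) and Entpd1 (56.1 and 28.9), whose ranges overlapped one another. P2rx7 followed at 26.3 and 7.93 CPM per kb. The other 5 genes were at 6.31 CPM per kb or less in both brain libraries. In sham blood Nt5e led with 11.5 and 12.7 CPM per kb, above Entpd1 (4.29 and 9.73), whose range overlapped that of Ada. P2ry13 was there at 0.102 and 1.59 CPM per kb, above P2ry14 by its mean but overlapping it. In tMCAO blood Adora2b had the highest mean (28.2 and 4.35 CPM per kb), and each of the leading 7 genes overlapped the next in order.

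Entpd1, P2rx4 and P2ry6 had the most alike patterns among the 10. The root mean square difference of their mean-centred log2 CPM over the 6 libraries was 0.35 for Entpd1 and P2rx4, 0.36 for P2rx4 and P2ry6 and 0.52 for Entpd1 and P2ry6. The least alike were Nt5e and P2ry13, at 4.67. Among 6448 or more other genes averaging 20 CPM or over, those nearest to P2rx4 were Asah1, Scpep1 and Slc7a7 (differences 0.11 to 0.16), and those nearest to P2ry6 were Ctsa, Unc93b1 and Pld3 (0.15 to 0.21). Entpd1 was nearest to Sgpl1, Tpp1 and Fuca2 (0.23 to 0.25), and P2ry13 to Cp, Apoc1 and Apoe (0.68 to 0.84). Nt5e was nearest to Il2rb, a receptor chain for interleukin-2, Ikzf3 and Atp2a3 (0.28 to 0.34), and Adora2a to Rasal3, Mfng and Dpp4 (0.21 to 0.30). Adora2b was nearest to Pycard, the inflammasome adaptor, at 0.48, P2rx7 to Ddit3 (0.26), P2ry14 to Odc1 (0.25) and Ada to Tor4a (0.10). These distances describe 6 libraries in 3 groups and were given no test.

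Other genes of the pathway were taken from a list of 40, of which 30 were tested. For tMCAO brain against sham blood 5 rose and 5 fell (8.01% and 2.62% of all genes tested). For tMCAO brain against tMCAO blood 2 rose and 1 fell (3.53% and 1.37% of all genes). For tMCAO blood against sham blood 1 rose and 3 fell (4.33% and 3.15%). Medians of their log2 changes were 1.24, 0.12 and 0.69, against 0.09, 0.06 and 0.11 over all genes tested. P2ry12 stood at 431 and 523 CPM in the tMCAO brain libraries, at 15.8 and 26.4 CPM in those of tMCAO blood and at 57.3 and 75.4 CPM in those of sham blood. It rose 22.6-fold in tMCAO brain against tMCAO blood (adjusted p = 0.0148 in edgeR) and 7.19-fold against sham blood (0.0142), and fell 3.14-fold in tMCAO blood against sham blood (0.0493). Its neighbour P2ry13 stood higher in both tMCAO blood libraries than in sham blood, which DESeq2 called (adjusted p = 0.0317) and edgeR did not. P2ry12 is also a platelet gene. Of 11 platelet genes tested, 5 fell in tMCAO blood against sham blood, and the list made up 0.187% and 0.082% against 0.139% and 0.188% of counts. The part of platelet RNA in the P2ry12 difference was not tested. The platelet channel gene P2rx1 fell 34.4-fold in tMCAO brain (1.09 and 0.654 CPM) and 7.40-fold in tMCAO blood (2.58 and 5.48 CPM) against sham blood (23.2 and 36.7 CPM; edgeR adjusted p = 0.0123 and 0.0401).

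Genes that make, carry or store nucleotides also differed. Slc17a9, the vesicular ATP carrier, fell 10.4-fold in tMCAO brain and 8.97-fold in tMCAO blood against sham blood (7.44 and 8.95, 4.95 and 14.0, and 73.9 and 96.5 CPM; edgeR adjusted p = 0.0193 and 0.035). The nucleoside carrier of lysosomes, Slc29a3, rose 7.18-fold in tMCAO brain against sham blood (86.0 and 49.5 against 9.44 and 9.43 CPM, edgeR adjusted p = 0.0125). Slc28a2, a concentrative nucleoside carrier, fell 9.47-fold in tMCAO brain against tMCAO blood (15.2 and 18.7 against 229 and 92.0 CPM, edgeR adjusted p = 0.0281). Art2b, an ADP-ribosyltransferase of T cells that can gate P2X7, fell 37.6-fold in tMCAO brain (1.69 and 2.25 CPM) against sham blood (73.7 and 75.6 CPM, edgeR adjusted p = 0.0211). Bst1, an ADP-ribosyl cyclase of myeloid cells, rose 86.7-fold in tMCAO blood (463 and 75.7 CPM) against sham blood (4.56 and 1.62 CPM, log2 change 6.44, edgeR adjusted p = 0.0378). The Bst1 log2 change was 4.6 without tMCAO blood library 1 and 7.22 without library 2, and 7.32 and 5.88 without sham library 1 and 2.

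Ak1, an adenylate kinase, stood at 21.5 and 35.6 CPM in tMCAO brain, with 3 counts over both tMCAO blood libraries and 0 in sham blood. It was 385-fold higher than in tMCAO blood (95% counting interval 132 to 1871; edgeR adjusted p = 0.0291) and at least 297-fold higher than in sham blood taking 3 counts over both sham libraries as the floor (0.0155). Enpp2, which encodes autotaxin and is also transcribed by oligodendrocytes, had the highest mean CPM of the pathway list over all libraries, which came from tMCAO brain library 2 (2699 CPM, against 59.2 CPM in library 1). In blood it was near the floor (0.108 and 0.648 CPM after tMCAO, 0.449 and 0 CPM after sham). The Enpp2 rise in tMCAO brain against sham blood (edgeR adjusted p = 0.0344) was lost by limma-voom (0.272). Cd38 stood at 368 and 98.4, 382 and 181, and 20.2 and 38.6 CPM in the 3 groups. edgeR did not call it in any comparison (adjusted p = 0.0546 between the blood groups and 0.0567 for tMCAO brain against sham blood), whereas DESeq2 called it in both of these. Nme1, whose counts are uncertain because it shares exon bases with Gm20390, was called by DESeq2 for tMCAO brain against tMCAO blood but not by edgeR (adjusted p = 0.0719). The adenosine receptor gene Adora3, which rose in tMCAO brain against sham blood (7.38 and 11.0 against 0.385 and 0.0704 CPM), and Adk, which fell (24.5 and 46.3 against 118 and 131 CPM), were named after their values were seen. Adora3 shares 20.89% of its exon bases with Tmigd3, so its counts are uncertain too. Bst1, Enpp2 and P2ry12 share 2.954%, 5.97% and 0.353% of theirs with genes on the opposite strand (Fbxl5, Gm26684 and Med12l). The part of shared reads in their counts was not tested.

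All calls of pathway genes against sham blood were lost without sham library 1 or 2. Those of tMCAO blood against sham blood were also lost without tMCAO blood library 1. Each of these settings leaves a lone library in a group. Every other gene lost its call in the same comparisons too, so these losses are not particular to the pathway. Of the calls of tMCAO brain against tMCAO blood, that of P2ry12 was lost without sham library 1 (edgeR adjusted p = 0.0573) or 2 (0.055). The calls of Ak1 and Slc28a2 were lost without the same libraries and without tMCAO brain library 2 (0.0672 and 0.0819). Ak1 was also lost without tMCAO blood library 2 (0.0608), and Slc28a2 without tMCAO brain library 1 (0.0883). With only the groups compared in the fit all 3 were lost (0.0585 to 0.0789). The fall of P2ry12 in tMCAO blood was also lost without tMCAO brain library 1 or 2 (0.0612 and 0.059). The rise of Bst1 was lost by limma-voom (0.0596). The calls of Slc17a9, Slc28a2, Art2b and Adora3 in tMCAO brain against sham blood were lost without either brain library. That of Adk was lost without brain library 1 (0.124).

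**Figure D4:**
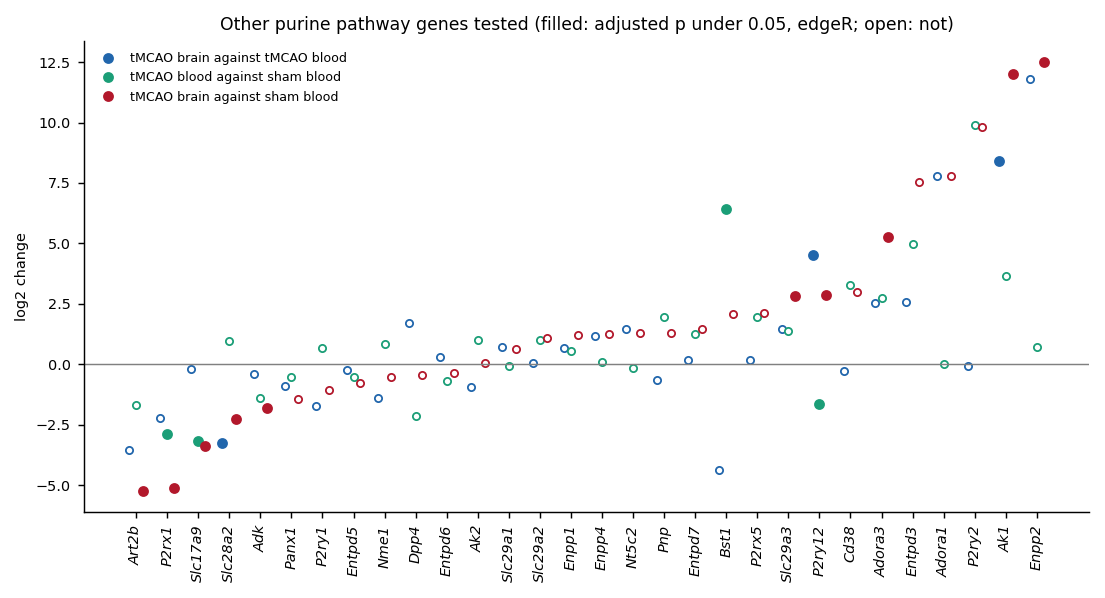
Log2 change of the 30 other purine pathway genes tested, in the 3 comparisons, ordered by the change for tMCAO brain against sham blood; filled points have an edgeR adjusted p under 0.05. Filled points lie on both sides of 0, with Art2b and P2rx1 lowest and Ak1 and Enpp2 highest for tMCAO brain against sham blood; fitted values of genes at 0 counts in a group depend on the model's prior count.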

How the data were processed

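RNA of 6 libraries was sequenced as paired 75 bp reads after SMART-Seq amplification and Nextera XT tagmentation, per the labels' protocols. The deposited values are whole-number counts per gene, made by the authors with STAR and HTSeq 0.11.2 on GRCm38, per the submitters' processing notes. The annotation release, strand setting and handling of multiply mapped reads are not stated in the sources used here, so antisense and overlapping genes may share counts. PCR reads carry no molecular identifiers, so counting intervals cover counting error only. Columns were matched to libraries by tissue, number and initial (S for sham, M for MCAO).

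Genes were filtered with filterByExpr (minimum count 10), scaled by TMM and tested in one edgeR 4.0.16 quasi-likelihood fit of all 6 libraries (3 residual degrees of freedom, R 4.3.3). P-values were Benjamini-Hochberg adjusted over 16657 genes with a threshold of 0.05. An SE is the log2 change over the square root of F. Exon lengths and positions came from GENCODE M21 (97.2% of symbols matched). Alternatives were DESeq2 1.42.0, its size factors, limma-voom (limma 3.58.1), other filters, only the groups compared, a replicate block and each library left out. The script was tested on simulated data. The members, lists and tests were chosen with earlier results of these data known. Genes named were the 10 members, up to 6 called pathway genes per comparison by adjusted p, the 4 most abundant pathway genes and the 3 genes nearest to each member, of which some are reported here.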

Additional observations from a re-analysis of the deposited data

How the results depend on the processing

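Under the 14 alternatives, the 30 log2 changes of the 10 genes gave 347 values with the same direction and side of the threshold, 35 that newly passed, 26 that no longer passed and 12 of opposite sign; the cause was not tested. Opposite signs, none of them called, were: Nt5e, tMCAO brain against tMCAO blood, 0.52 without brain library 1 and 0.79 without tMCAO blood library 2 (-3.65 to 0.79 with a library left out). P2rx7, tMCAO blood against sham blood, had 0.1 without tMCAO blood library 1 (range -0.58 to 0.1) and 0.15 without both libraries of low Foxp3. P2ry6 had -0.03 without tMCAO blood library 1 (-0.03 to 1.27). Ada had -0.03 with DESeq2 size factors and by DESeq2, -0.0001 by limma-voom, -0.12 without tMCAO blood library 1, -0.09 without sham library 2 (-0.12 to 0.12) and -0.07 without both libraries of low Foxp3. Adora2b, tMCAO brain against sham blood, had 0.34 without sham library 1 (-1.01 to 0.34).

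For tMCAO brain against tMCAO blood, members called (1 in edgeR) were 7 with no filter, 2 with the stricter filter (5 CPM in 2 libraries), 6 by DESeq2, 3 by limma-voom, 0 with only these groups, 2 with the replicate block, 0 to 1 with a library left out and 5 without both libraries of low Foxp3. Other pathway genes (3) were 14, 6, 12, 0 with only these groups, 5 with the block, 0 to 4 and 11. All genes (816) were 3598, 1237, 3451 and 1446 by limma-voom, 26 with only these groups, 31 to 313 with a library left out and 3609.

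For tMCAO blood against sham blood, members called (0) were 4 with no filter, 3 by DESeq2, 0 to 1 with a library left out and 2 without both. Pathway genes (4) were 12 with no filter, 7 with the stricter filter, 12 by DESeq2, 9 with only these groups, 7 with the replicate block, 0 to 8 and 11. All genes (1246) were 3611, 3806 by DESeq2, 0 to 1240 and 3850.

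For tMCAO brain against sham blood, members called (5) were 3 with the replicate block and 0 to 5 with a library left out. Pathway genes (10) were 21 with no filter, 17 by DESeq2, 0 to 10 and 17 without both. All genes (1772) were 4458 with no filter, 4007 by DESeq2, 2752 with only these groups, 0 to 2080 and 4979.

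Libraries with the same number shared a number only: their deviations from group means correlated at 0.304 for tMCAO brain and tMCAO blood, -0.0702 for tMCAO blood and sham blood and -0.0285 for tMCAO brain and sham blood (16657 genes). With the replicate block the adjusted p in edgeR was 0.0545 for Entpd1 and 0.0505 for P2ry14 in tMCAO brain against sham blood, and 0.0488 for P2rx4 against tMCAO blood. A library left out leaves its group with a lone library, assumed to vary like the others. Depth limits Adora2a and P2ry13 most, with as few as 14 and 4 counts in a library.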
